A study of Mus musculus with 7 samples.

Results

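Iron storage, uptake and ferritinophagy, the release of iron by breaking down ferritin in lysosomes, were read from 10 genes in the livers of mice with diet-induced steatohepatitis. The genes were chosen by name, for their roles in iron handling. They are the ferritin subunits Fth1 and Ftl1, the ferritinophagy receptor Ncoa4, transferrin (Trf), the transferrin receptors Tfrc and Tfr2, the ferric reductase Steap3, the importer Slc11a2, the exporter Slc40a1 and the iron hormone Hamp. All 10 were among the 23347 genes of the deposited table, and all 10 were among the 15179 that held enough counts to be tested, with at least 234 counts in each library. Each library came from 1 mouse. The 4 B4galt1 flox/flox mice, called WT in the sample labels, are controls that carry B4galt1 flanked by recombination sites and have no Cre. The 3 mice labelled B4galt1 hep-/- carry the same floxed alleles together with Cre driven by the albumin promoter, which is active in hepatocytes, so that other liver cells keep the gene. B4galt1 encodes a galactosyltransferase of the Golgi that extends N-linked glycans. All were male C57BL/6 mice kept for 15 weeks on the CDAHFD, a high-fat diet without choline and with defined amino acids. Their age is not in the sample labels, though the paper's methods give it for the start of feeding. The chow arm was not analysed here.

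The libraries were first checked against their labels. B4galt1 (NCBI gene 14595) was at 48.7, 53.0, 49.2 and 51.7 CPM (counts scaled to the size of the library by edgeR's TMM method) in B4galt1 flox/flox replicates 1 to 4, and at 28.4, 23.9 and 53.7 CPM in replicates 1 to 3 labelled B4galt1 hep-/-. Replicate 3 of the labelled group was therefore not low in the gene its label names, and the group's log2 fold change of -0.52 (SE 0.26, adjusted p = 0.181) did not pass the test. Without that replicate it was -0.96 and B4galt1 was called lower (adjusted p = 0.0139), and without labelled replicate 2 it was -0.30. With all 7 livers B4galt1 was called only by limma on log2(FPKM + 1) (adjusted p = 0.0389) and log2(FPKM + 0.1) (adjusted p = 0.0382). Whether the label of replicate 3 is right cannot be told from these data. A count over the whole gene in whole liver cannot show whether an exon was deleted in hepatocytes, so the libraries are called by their labels throughout. Transcripts encoded in mitochondria took between 3.88% and 7.996% of a library in the controls and between 14.4% and 22.6% in livers labelled B4galt1 hep-/-. Total counts were 37838654 to 39668509 in the former and 30608271 to 34586588 in the latter. The 7 hepatocyte markers, led by Alb, were present in every library, with a summed level of 78130 to 118100 CPM in B4galt1 flox/flox livers and 96400 to 151400 CPM in the others, and 0 of the 7 was called.

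Iron travels in blood bound to transferrin. A cell binds the loaded protein with transferrin receptor 1, the product of Tfrc, takes it into an endosome, reduces the iron with STEAP3 and moves it into the cytosol through SLC11A2, also known as DMT1. Iron that is not used is stored inside a shell of ferritin heavy and light chains, and NCOA4 carries ferritin to the lysosome when the iron is needed again. Ferroportin, the product of Slc40a1, lets iron out of the cell, and hepcidin, the product of Hamp, is a hormone made by hepatocytes that closes ferroportin. Hepatocytes are the main iron store of the body, and iron released from ferritin can feed the lipid peroxidation of ferroptosis, the form of cell death the study was concerned with.

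Several of these transcripts carry an iron-responsive element, a short hairpin that iron regulatory proteins bind when iron is scarce. In a 5′ UTR the bound hairpin blocks translation, and in the 3′ UTR of Tfrc it protects the mRNA from decay, so Tfrc is a member whose mRNA level itself is known to follow cell iron. The elements are shown because they mark which members can be regulated at translation, which RNA counts do not see. A pattern with an unpaired C, a stem of 5 paired bases and the loop CAGTGN was searched in GENCODE transcripts of GRCm38. In this loop N was A, C or T, and in the stem G with T also counted as a pair. It occurred in a UTR of 121 of 21877 protein-coding genes (0.55%) and in 4 of the 10 members. The capitals mark the loop, and each sequence runs 5′ to 3′ on the strand of the transcript.
Fth1 5′ UTR, chr19:9982733-9982759, plus strand: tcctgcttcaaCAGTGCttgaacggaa
Ftl1 5′ UTR, chr7:45459780-45459806, minus strand: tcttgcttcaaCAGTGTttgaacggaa
Slc40a1 5′ UTR, chr1:45925466-45925492, minus strand: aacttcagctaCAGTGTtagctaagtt
Tfrc 3′ UTR, chr16:32631220-32631246, plus strand: attatcggaagCAGTGCcttccataat
Tfrc 3′ UTR, chr16:32631599-32631625, plus strand: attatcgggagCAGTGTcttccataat
Tfrc 3′ UTR, chr16:32631664-32631690, plus strand: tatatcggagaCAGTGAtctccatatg
Tfrc 3′ UTR, chr16:32631711-32631737, plus strand: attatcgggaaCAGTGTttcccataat
The Tfrc matches all lay in exon 19, its last. The ferritin elements shared all but a few letters, and the 6 other members, Slc11a2 among them, had no match to these letters in a UTR.

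Of the 10 genes, Ncoa4 and Steap3 fell and Tfrc rose in the livers labelled B4galt1 hep-/-, by edgeR's quasi-likelihood test with an adjusted p below 0.05 and a log2 fold change beyond 0.58 in size. The remaining 7 were not called. Over all 15179 genes tested, 7.83% were called lower, 8% higher and 15.8% in either direction. Among the members these shares were 20% and 10%, which is 2 genes and 1 gene. Negative log2 fold changes were found for 8 of the 10 members, with a median of -0.50, where the median of all tested genes was 0.02 and 48.7% of them were negative. The groups did not overlap for 4 members. Fth1, Ncoa4 and Steap3 were below every B4galt1 flox/flox liver in all 3 labelled livers, as were 15% of all tested genes, and Tfrc was above, as were 13.6%. The members together accounted for 2.40% ± 0.0713 (SD, n = 4) of the raw counts of a control library and for 1.63% ± 0.288 (SD, n = 3) of a labelled one, a total that includes the mitochondrial transcripts. On the TMM scale their sum, which is mostly Trf, was 21420 to 24520 CPM and 12670 to 22100 CPM, and the groups overlapped. In RNA from whole liver, fewer cells of a type and less RNA per cell cannot be told apart. The p-values measure the spread between these 7 mice.

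**Figure D1:**
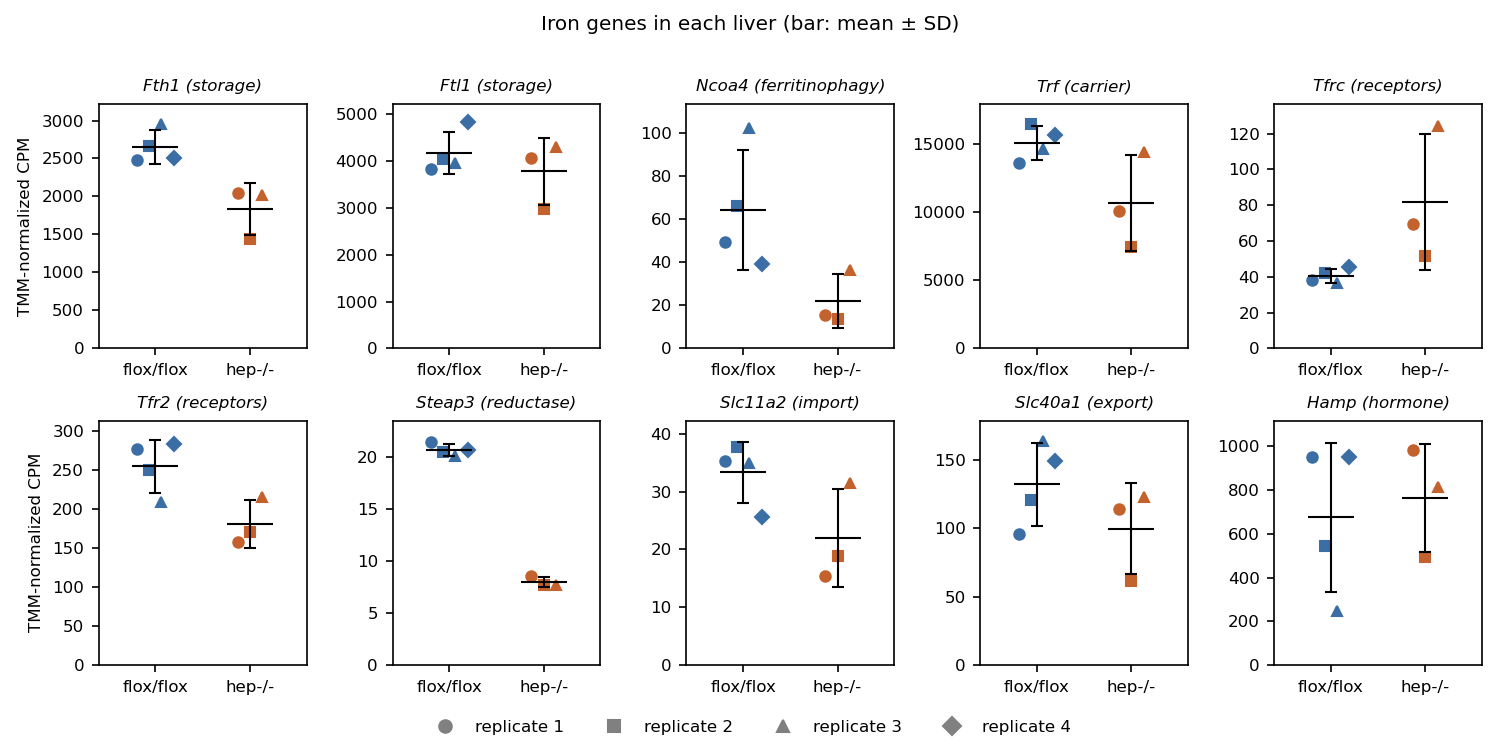
Level of each of the 10 iron genes in every liver, in TMM-normalized CPM on a linear axis from 0, with B4galt1 flox/flox livers in blue (n = 4), livers labelled B4galt1 hep-/- in orange (n = 3), marker shapes for replicates and black bars for mean ± SD. Ncoa4, Steap3 and Fth1 lay lower and Tfrc higher in all 3 labelled livers, and the groups overlapped for the other 6 genes.

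The ferritin subunits were abundant in every liver and were not called. Fth1 (NCBI gene 14319), the heavy chain that oxidizes iron on entry, was at 2477, 2661, 2959 and 2512 CPM in B4galt1 flox/flox replicates 1 to 4 and at 2040, 1437 and 2022 CPM in replicates 1 to 3 labelled B4galt1 hep-/-. All 3 labelled livers were below all 4 controls, yet the log2 fold change of -0.53 (SE 0.23, 95% interval -1.03 to -0.04) had an adjusted p of 0.126 and did not pass. Ftl1 (NCBI gene 14325), the light chain that helps form the iron core, was at 3835, 4043, 3950 and 4825 CPM against 4066, 2966 and 4298 CPM. The groups overlapped, with a log2 fold change of -0.14 (SE 0.24, 95% interval -0.66 to 0.38, adjusted p = 0.710). The ratio of Fth1 to Ftl1, in FPKM, which also divides by gene length, was 0.665, 0.678, 0.771 and 0.536 in B4galt1 flox/flox livers and 0.517, 0.499 and 0.484 in labelled livers, so that all 3 of the latter were below all 4 of the former, the nearest pair being 0.536 and 0.517. A ratio within a library does not depend on how libraries are scaled and says that the subunits differed unequally, not which of them changed. With limma on log2(FPKM + 1), a fit in which the median of all genes shifted by -0.12, Fth1 was called lower (-0.67, adjusted p = 0.0155).

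Ncoa4 (NCBI gene 27057), which hands ferritin over to autophagosomes, fell to 0.341 of the control level. It was at 49.4, 66.0, 102.6 and 39.4 CPM in B4galt1 flox/flox replicates 1 to 4 and at 15.8, 13.7 and 36.4 CPM in replicates 1 to 3 labelled B4galt1 hep-/-. The groups did not overlap, though replicate 3 of the labelled group came close to the lowest control, and the controls themselves spread widely, with a coefficient of variation of 43.1%. The mean was 64.4 ± 27.7 CPM (SD, n = 4) in controls against 21.9 ± 12.5 CPM (SD, n = 3), a log2 fold change of -1.55 (SE 0.39, 95% interval -2.41 to -0.70, adjusted p = 0.0239). Only 1.48% of the tested genes had a lower log2 fold change. The call was lost when either B4galt1 flox/flox replicate 2 (-1.55, adjusted p = 0.0562) or replicate 3 (-1.24, adjusted p = 0.0551) was left out, and likewise without replicate 1 (-1.38, adjusted p = 0.0653) or replicate 2 (-1.31, adjusted p = 0.0665) of the labelled group. Without labelled replicate 3 the log2 fold change was -2.14. Set against the ferritin it delivers, Ncoa4 overlapped between the groups. The log2 ratio of Ncoa4 to Fth1, from FPKM, was -7.64, -7.33, -6.85 and -7.99 in B4galt1 flox/flox livers and -9.01, -8.70 and -7.79 in labelled livers, a mean difference of -1.05.

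The carrier and its receptors did not move alike. Trf (NCBI gene 22041), which hepatocytes secrete, was the most abundant member, taking 0.807% to 1.66% of a library's counts. Its level was 13640, 16480, 14630 and 15660 CPM in B4galt1 flox/flox livers and 10090, 7448 and 14430 CPM in labelled livers. Labelled replicate 3 was within the control range and the other 2 were below it, and the log2 fold change of -0.50 (SE 0.28, 95% interval -1.12 to 0.12, adjusted p = 0.239) did not pass.

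Tfrc (NCBI gene 22042), the receptor of most cells, rose 2.02-fold. It was at 38.1, 41.9, 36.6 and 45.2 CPM in B4galt1 flox/flox replicates 1 to 4 and at 69.4, 51.7 and 124.4 CPM in replicates 1 to 3 labelled B4galt1 hep-/-. All 3 labelled livers were above all controls, and they were far more spread, with a coefficient of variation of 46.3% against 9.59%. The mean was 40.4 ± 3.88 CPM (SD, n = 4) in controls against 81.8 ± 37.9 CPM (SD, n = 3), a log2 fold change of 1.02 (SE 0.26, 95% interval 0.44 to 1.59, adjusted p = 0.0259). The highest value came from labelled replicate 3, the liver in which B4galt1 was not low, and without it the log2 fold change was 0.575 and Tfrc was not called (adjusted p = 0.0814). Leaving out B4galt1 flox/flox replicate 2 (1.03, adjusted p = 0.0697) or replicate 3 (0.97, adjusted p = 0.0644) also ended the call. By qPCR on livers of CDAHFD-fed mice, the paper found no significant difference in a gene it names Tfr or in Fth1. Nor did total liver iron differ significantly there between the genotypes on this diet. Tfr2 (NCBI gene 50765), a second receptor restricted largely to hepatocytes and erythroid cells that takes part in sensing loaded transferrin, was at 277.3, 250.5, 209.5 and 284.5 CPM against 157.8, 170.5 and 216.2 CPM. Only the highest labelled liver reached the control range. The log2 fold change was -0.49 (SE 0.20, 95% interval -0.94 to -0.05, adjusted p = 0.117), not called.

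Because Tfrc was higher while Trf, Tfr2 and Fth1 had negative log2 fold changes, the ratios that hold Tfrc separated the groups by a wide gap. The ratio of Trf to Tfrc (FPKM) was 790, 869, 883 and 765 in B4galt1 flox/flox livers and 321, 318 and 256 in labelled livers. Its spread within a group was small beside the gap, with means of 827 ± 58.3 (SD, n = 4) and 298 ± 36.6 (SD, n = 3), although both genes varied from liver to liver. The ratio of Tfr2 to Tfrc was 9.95, 8.19, 7.83 and 8.61 against 3.11, 4.51 and 2.38. The log2 ratio of Tfrc to Fth1, the receptor against the store, was -8.47, -8.44, -8.79 and -8.25 in B4galt1 flox/flox livers and -7.33, -7.25 and -6.47 in labelled livers, a mean difference of 1.47. These messages carry the elements shown above at opposite ends, 4 matches in the 3′ UTR of Tfrc and 1 in the 5′ UTR of Fth1. The element of Fth1 acts at translation, which RNA counts do not see, and the part of either in this ratio was not tested. With any 1 library left out, the mean differences kept their sign and stayed between -1.53 and -1.37 for the log2 of Trf to Tfrc, between -1.66 and -1.20 for Tfr2 to Tfrc, and between 1.20 and 1.63 for Tfrc to Fth1. No test was run on the ratios.

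**Figure D2:**
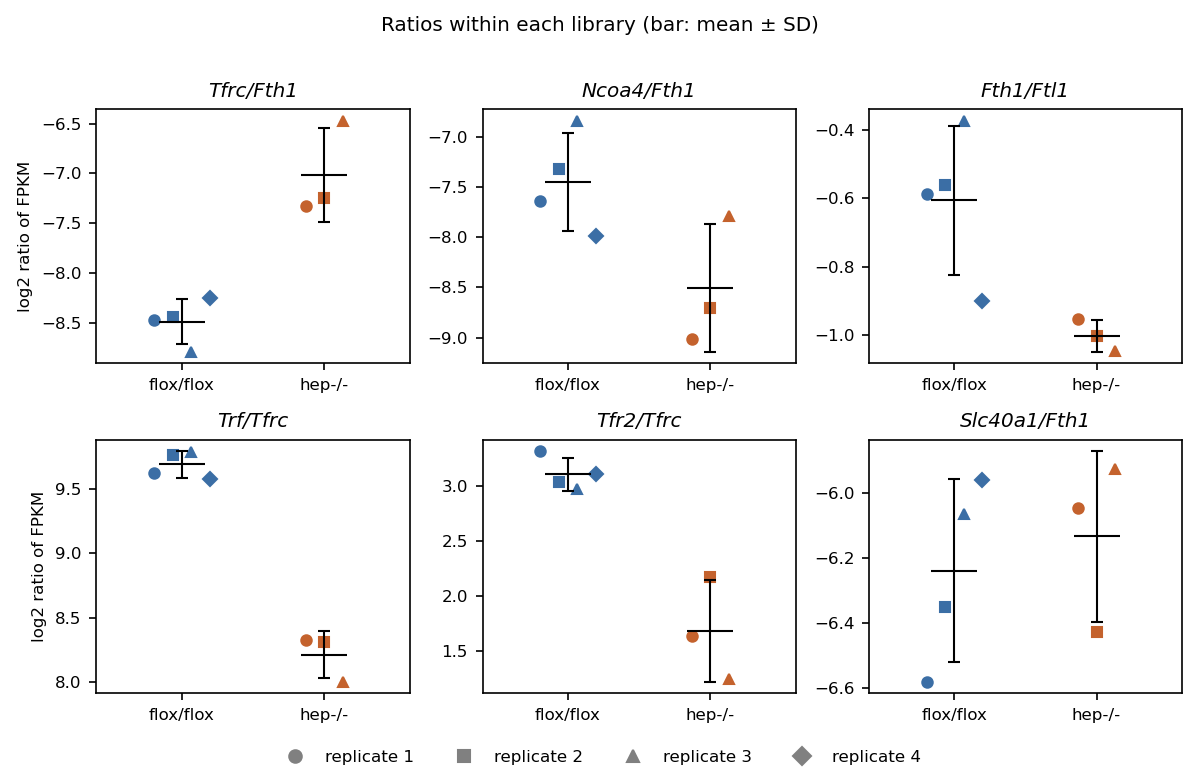
Log2 ratio of the FPKM values of 2 members in each liver, with B4galt1 flox/flox livers in blue (n = 4), livers labelled B4galt1 hep-/- in orange (n = 3), marker shapes for replicates and bars for mean ± SD. Tfrc/Fth1 was higher and Trf/Tfrc, Tfr2/Tfrc and Fth1/Ftl1 were lower in all 3 labelled livers, while Ncoa4/Fth1 and Slc40a1/Fth1 overlapped.

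Steap3 (NCBI gene 68428), the endosomal reductase that turns ferric into ferrous iron, was the steadiest member and fell to 0.387 of the control level. It was at 21.5, 20.5, 20.03 and 20.7 CPM in B4galt1 flox/flox replicates 1 to 4 and at 8.57, 7.69 and 7.70 CPM in replicates 1 to 3 labelled B4galt1 hep-/-. All 3 labelled livers, replicate 3 included, lay together and far below all 4 controls. The mean was 20.7 ± 0.594 CPM (SD, n = 4) in controls against 7.99 ± 0.506 CPM (SD, n = 3), with coefficients of variation of 2.88% and 6.34%, and the log2 fold change was -1.37 (SE 0.18, 95% interval -1.76 to -0.98, adjusted p = 0.00257). It was called lower in all 19 other settings tried, with log2 fold changes from -1.46 to -1.18. Slc11a2 (NCBI gene 18174), which moves the reduced iron out of the endosome, was at 35.3, 37.7, 34.9 and 25.7 CPM against 15.5, 18.9 and 31.5 CPM. Labelled replicate 3 was inside the control range and the other 2 below it. The log2 fold change of -0.60 (SE 0.25, 95% interval -1.15 to -0.06, adjusted p = 0.118) did not pass, but without that replicate it was -0.97 (adjusted p = 0.0242), and voom with sample quality weights called it lower with all 7 livers (-0.78, adjusted p = 0.0350).

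Slc40a1 (NCBI gene 53945), the only known iron exporter of mammalian cells, was at 95.7, 120.6, 163.8 and 149.3 CPM in B4galt1 flox/flox livers and at 114.3, 61.8 and 123.3 CPM in labelled livers. The groups overlapped, and the log2 fold change was -0.41 (SE 0.27, 95% interval -0.998 to 0.18, adjusted p = 0.317). Without labelled replicate 2 it was -0.156. Hamp (NCBI gene 84506), which encodes hepcidin, was at 950.5, 546.1, 249 and 953.1 CPM against 981.7, 492.8 and 815.6 CPM. It was the most variable member among controls, with a coefficient of variation of 50.7%. The log2 fold change of 0.18 (SE 0.41, 95% interval -0.71 to 1.07, adjusted p = 0.791) leaves room for a change of either sign, and the sign turned without B4galt1 flox/flox replicate 3 (-0.098) or labelled replicate 1 (-0.063).

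Mice hold a near copy of Hamp beside it on chromosome 7, Hamp2 (NCBI gene 66438), whose reads the authors' counting could have split with Hamp. Its count was small, at 3.45, 1.91, 1.48 and 3.11 CPM in B4galt1 flox/flox livers and 3.34, 6.09 and 4.44 CPM in labelled livers, with a log2 fold change of 0.90 (SE 0.37, adjusted p = 0.112). A pseudogene of the light chain, Ftl1-ps2, had at most 2 counts in a library. The promoters of the hepcidin genes are shown because they differ in an element through which bone morphogenetic proteins (BMPs), the main iron signal to hepatocytes, act on Hamp. The sequences are the 140 bases before the start site from RefSeq (GRCm38.p6), with the BMP element core GGCGCC and the palindrome TTCNNNGAA bound by STAT factors in capitals.
Hamp, chr7:30944030-30944169, minus strand: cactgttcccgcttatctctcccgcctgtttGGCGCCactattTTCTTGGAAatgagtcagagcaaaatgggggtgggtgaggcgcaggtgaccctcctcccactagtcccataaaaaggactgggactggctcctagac
Hamp2, chr7:30924182-30924321, minus strand: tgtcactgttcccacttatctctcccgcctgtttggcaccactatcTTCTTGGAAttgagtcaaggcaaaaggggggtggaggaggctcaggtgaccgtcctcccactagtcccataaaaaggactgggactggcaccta
GGCGCC was present in the Hamp window and had no match in that of Hamp2, and the STAT palindrome was present in both. Searched on both strands of the 250 bases before the start site, GGCGCC occurred in 9.59% and TTCNNNGAA in 7.02% of 32851 promoter windows. Of the 7 members with a promoter entry, Tfrc also held GGCGCC, at -89 from its first start site, and Hamp alone held the palindrome.

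Per length, the members differed widely in level. In B4galt1 flox/flox livers Trf led at 6477 ± 529 CPM per kilobase (SD, n = 4), followed by Ftl1 at 4292 ± 463, Fth1 at 2816 ± 233 and Hamp at 1658 ± 841. Far below came Tfr2 at 67.8 ± 9.01, Slc40a1 at 38.0 ± 8.70, Ncoa4 at 17.2 ± 7.39, Tfrc at 7.85 ± 0.753, Steap3 at 6.22 ± 0.179 and Slc11a2 at 5.31 ± 0.840 CPM per kilobase. No neighbours in that order overlapped over the 4 control livers. In the labelled livers Tfrc, at 15.9 ± 7.36 CPM per kilobase (SD, n = 3), stood above Ncoa4, at 5.85 ± 3.34, and Steap3 was last at 2.41 ± 0.153. Trf and Ftl1 overlapped there, as did Fth1 and Hamp, Slc40a1 and Tfrc, Ncoa4 and Slc11a2, and Slc11a2 and Steap3.

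Livers of one group also differed from each other in a shared way. Of the 3 labelled livers, replicate 3 was the highest for 7 of the 10 members and replicate 2 the lowest for 8. After subtracting each group's mean from log2 CPM, 33 of the 45 pairs of members correlated positively over the 7 livers, with a median Pearson's r of 0.43, and 8 pairs had r over 0.7. Trf and Tfrc, a protein and its receptor, varied most alike (r = 0.967), followed by Fth1 with Slc40a1 (0.883) and Ftl1 with Slc40a1 (0.825). Ncoa4 went most closely with Slc11a2 (0.794), and Steap3 and Slc11a2 were the most opposed (-0.545). The deviations of Trf and Tfrc were largest in labelled replicates 2 (-0.464 and -0.563) and 3 (0.49 and 0.703). These values share 1 library per liver and its scaling and are a description of 7 points. The same counts were not made over all tested genes, so they do not set the members apart from other genes.

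The 64 other genes of iron handling that were listed gave 57 tested genes, of which 9 were called lower (15.8%, against 7.83% of all genes tested), 2 higher (3.51%, against 8%) and 46 neither, with a median log2 fold change of -0.17. Of 18 tested genes that control hepcidin, 2 fell and 1 rose, with a median of -0.16, a share of calls near the 15.8% of all tested genes called in either direction. Tmprss6, a hepatocyte protease that cleaves the BMP co-receptor and so restrains hepcidin, was at 264.7, 247.4, 244.8 and 231.3 CPM in B4galt1 flox/flox livers and at 123, 105.1 and 192.5 CPM in labelled livers (log2 fold change -0.82, SE 0.23, adjusted p = 0.0347). Hfe, the hemochromatosis protein that pairs with either transferrin receptor, averaged 47.4 ± 2.21 CPM (SD, n = 4) in controls and 30.2 ± 5.56 CPM (SD, n = 3) in labelled livers, a log2 fold change of -0.65 (SE 0.18, adjusted p = 0.0326). Id1, a direct target of BMP signalling, was at 23.4, 15.3, 22.3 and 18.7 CPM against 32.3, 56.2 and 30.2 CPM and rose (log2 fold change 0.99, SE 0.24, adjusted p = 0.0224). For these 3 genes the groups did not overlap. Of the 18 tested genes of the list, 2 lay below in every labelled liver and 4 above, Id1 among them. Over all tested genes, 15% lay below and 13.6% above in this way. Fgl1, a liver protein that opposes BMP signalling and was one of the most abundant genes of the list, was not called (0.62, adjusted p = 0.242). When single libraries were left out, Tmprss6 kept its call only without labelled replicate 3 (adjusted p up to 0.0922 otherwise) and Hfe only without that library or B4galt1 flox/flox replicate 1 (up to 0.0900 otherwise). Id1 lost its call without B4galt1 flox/flox replicate 2 (adjusted p = 0.0779) or 4 (0.0534) or labelled replicate 2 (0.0812).

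Of the 3 genes through which RNA-binding proteins sense iron, Aco1 fell. It encodes IRP1, which binds the hairpins shown above when it lacks its iron-sulfur cluster and is an aconitase when it holds one. Its level was 139.4, 160.1, 183.7 and 135.9 CPM in B4galt1 flox/flox livers and 86.5, 70.3 and 100.8 CPM in labelled livers, with no overlap (log2 fold change -0.85, SE 0.20, adjusted p = 0.0199). The call was lost without B4galt1 flox/flox replicate 2 (adjusted p = 0.0605) or 3 (0.0507) or labelled replicate 2 (0.0536). The list's median was -0.35, and Ireb2, which encodes the sister protein IRP2, was not called (-0.35, adjusted p = 0.227). Among 4 tested genes of ferritin loading and turnover, with a median of 0.08, Herc2, a ubiquitin ligase reported to act on NCOA4, rose by the thinnest of margins (0.74, adjusted p = 0.04997), its groups overlapped, and 10 of the 19 other settings lost the call, which among the fits with 1 library left out stood only without labelled replicate 1. The iron chaperone Pcbp2 (0.33, adjusted p = 0.285) and the autophagy receptor Tax1bp1 (-0.36, adjusted p = 0.270) were not called.

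The 4 tested reductases and oxidases had a median of -0.69 with 0 called. Steap4, a relative of Steap3, was at 140.5, 213.8, 235.3 and 163.7 CPM in B4galt1 flox/flox livers and at 85.0, 37.9 and 133.5 CPM in labelled livers. All 3 of the latter were below all 4 of the former, and its log2 fold change of -1.14 (SE 0.36, adjusted p = 0.0514) missed the threshold narrowly and passed it in 11 of the 19 other settings, among them the fits without B4galt1 flox/flox replicate 1 or labelled replicate 3 (-1.62). Cp, the ferroxidase ceruloplasmin, was not called (0.21, adjusted p = 0.535). None of 9 tested transporters and receptors of other routes was called, with a median of 0.42. They included Slc39a14, the importer of iron that is not bound to transferrin, at 158, 167.6, 121.1 and 126.5 CPM against 130, 157 and 349.1 CPM, whose log2 fold change of 0.57 (adjusted p = 0.225) came from labelled replicate 3 and was -0.007 without it. Lcn2, which binds iron-carrying siderophores, was not called either (0.42, adjusted p = 0.220).

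Genes of iron-sulfur cluster assembly, all but the cytosolic factor Ciao1 of mitochondria, were called lower in 5 of 14 tested (35.7%, against 7.83% of all genes tested) and higher in 0, with a median of -0.41. Hspa9, the mitochondrial chaperone that hands clusters on, was at 462.6, 616.8, 553.6 and 586.7 CPM in B4galt1 flox/flox livers and at 208.9, 145.3 and 334.5 CPM in labelled livers (log2 fold change -1.27, SE 0.28, adjusted p = 0.0140) and was called in all 19 other settings. Glrx5, the glutaredoxin that receives the cluster, was at 72.8, 80.6, 70.2 and 100.3 CPM against 37.2, 21.1 and 51.9 CPM (-1.14, SE 0.28, adjusted p = 0.0215). The late-acting factors Isca1 (-1.06, adjusted p = 0.0227), Nfu1 (-0.77, adjusted p = 0.0337) and Iba57 (-0.79, adjusted p = 0.0390) fell as well, without overlap of the groups for any of the 5, as for the 15% of all tested genes that lay below in every labelled liver. Leaving out B4galt1 flox/flox replicate 2 ended each of these calls but that of Hspa9, with adjusted p between 0.0535 for Glrx5 and 0.105 for Nfu1. So did B4galt1 flox/flox replicate 4 for Glrx5 (0.0516), Nfu1 (0.0668) and Iba57 (0.0803), and labelled replicate 2 for Isca1 (0.0562), Nfu1 (0.106) and Iba57 (0.112). Labelled replicate 1 ended those of Isca1 (0.0594), Nfu1 (0.0712) and Iba57 (0.0538), B4galt1 flox/flox replicate 3 those of Nfu1 (0.0590) and Iba57 (0.0629), and B4galt1 flox/flox replicate 1 that of Iba57 (0.0580). The scaffold Iscu was not called (0.16, adjusted p = 0.589). The share of mitochondrially encoded transcripts moved the other way between the same libraries, and its part in these differences was not tested. With the 13 mitochondrially encoded genes removed before scaling, the counts of members called were the same, and 10 other iron genes were lower against 9. The median log2 fold change shifted by only 0.002 there. Removing these rows hardly changed the scaling, so it does not test the part of the mitochondrial share.

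Of 5 other transcripts known to carry an iron-responsive element, with a median of -0.33, Alas2 fell. It encodes the erythroid form of the first enzyme of heme synthesis and was at 29.8, 42.2, 35.7 and 37.7 CPM in B4galt1 flox/flox livers and at 21.8, 10.4 and 13.98 CPM in labelled livers (-1.24, SE 0.25, adjusted p = 0.0105), with the call kept in all 19 other settings. Its 5′ UTR held a match to the same pattern, chrX:150547459-150547485 of GRCm38 on the plus strand, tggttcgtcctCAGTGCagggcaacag. Of 5 erythroid markers tested, Alas2 included, 1 was lower and 1, the globin Hba-a1, was higher, and their summed level was 101.6 to 181.6 CPM in B4galt1 flox/flox livers and 70.1 to 245.3 CPM in labelled livers. The groups overlapped for Hba-a1, which lost its call in 9 of the 19 other settings, 6 of them among the 7 fits with a library left out. Epas1, a hypoxia-inducible factor, was not called (-0.47, adjusted p = 0.162).

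**Figure D3:**
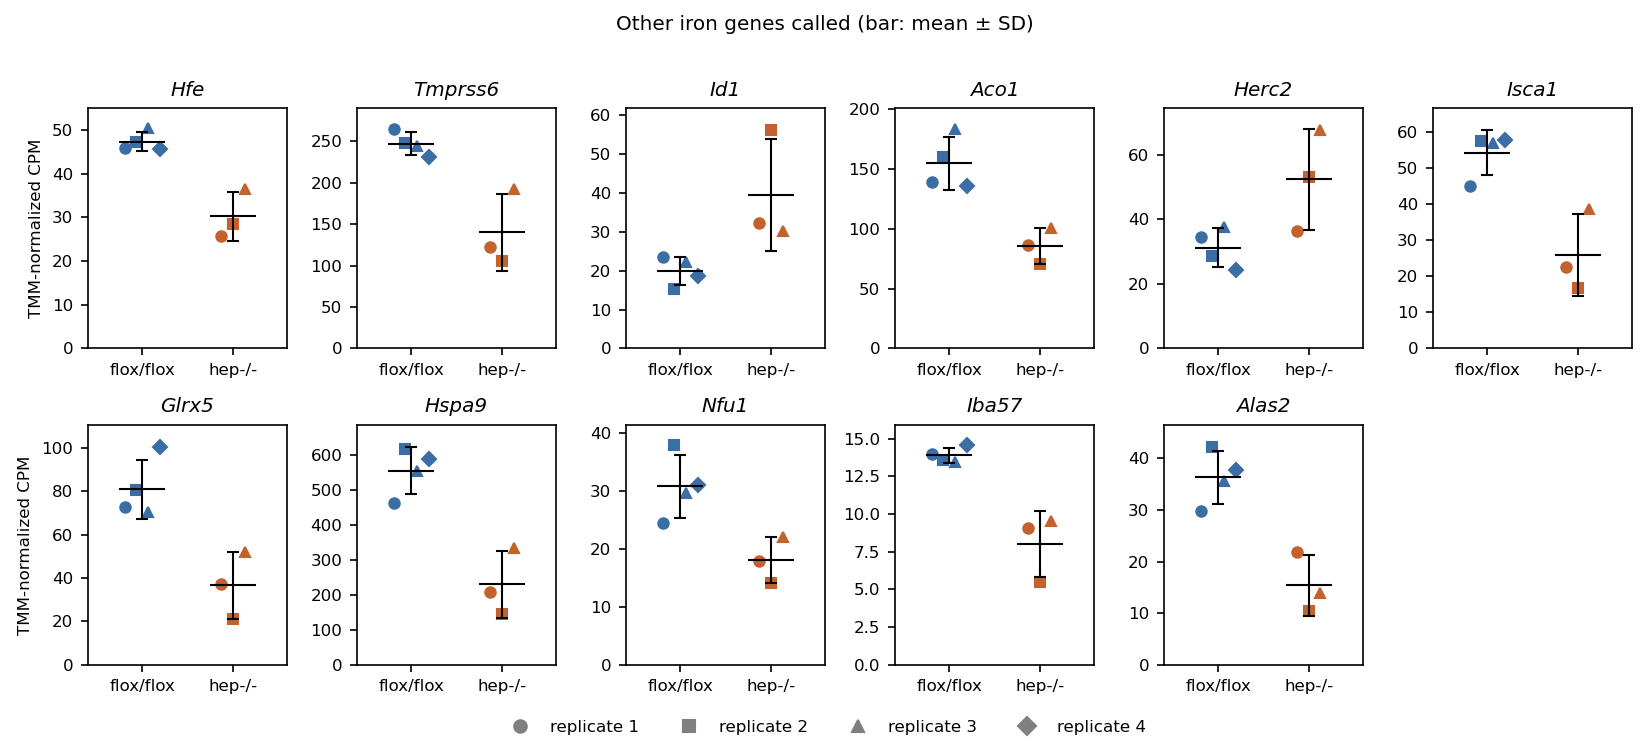
Level of the 11 other iron genes that were called, in TMM-normalized CPM on linear axes from 0, in B4galt1 flox/flox livers (blue, n = 4) and livers labelled B4galt1 hep-/- (orange, n = 3), with marker shapes for replicates and bars for mean ± SD. Id1 and Herc2 were higher and the other 9 genes lower in the labelled livers, and Herc2 was the only one whose groups overlapped.

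**Figure D4:**
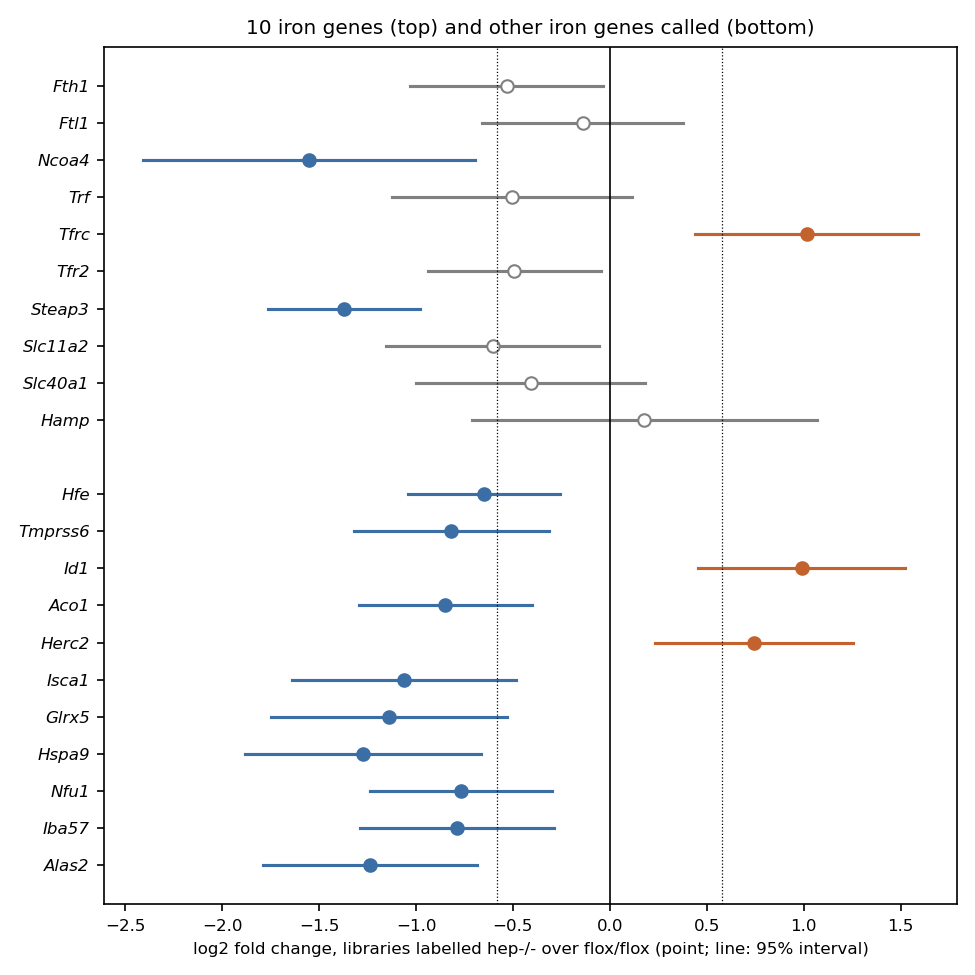
Log2 fold change of libraries labelled B4galt1 hep-/- over B4galt1 flox/flox from edgeR (7 livers), with 95% intervals, for the 10 members at the top and the other iron genes that were called at the bottom. Filled points were called, open points were not, and dotted lines stand at the fold change threshold of 0.58 in both directions. Ncoa4 and Steap3 were called lower and Tfrc higher among the members.

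Liver macrophages also store and export iron, and their markers differed between the same libraries. Of 6 Kupffer cell markers, 3 (Vsig4, Marco and Folr2) were lower and 0 higher, where 7.83% of all tested genes were lower, with a summed level of 192.7 to 440.6 CPM in B4galt1 flox/flox livers and 97.9 to 204.1 CPM in labelled livers. Of 6 markers of recruited macrophages, 4 (Gpnmb, Trem2, Itgax and Cd68) were lower, with summed levels of 868.5 to 1971 CPM and 602.8 to 1189 CPM. None of these markers was at 0 in all libraries. Without B4galt1 flox/flox replicate 3, 0 of the 3 Kupffer cell markers kept its call (adjusted p = 0.0708 for Vsig4, 0.0862 for Marco and 0.0737 for Folr2). Over the 7 fits with a library left out, the call was lost in 5 for Vsig4 and Itgax and in 4 for Marco, Folr2 and Trem2, and in 0 for Gpnmb and Cd68. All macrophage markers called were lower, in the same libraries in which Ncoa4 and Steap3 were lower and Tfrc was higher. The part of macrophages in the calls of Ncoa4, Steap3 and Tfrc was not tested. Of 6 endothelial markers 1, Kdr, was lower, and its call was lost in 5 of those 7 fits. The summed level of the 6 was 101.7 to 343.5 CPM in B4galt1 flox/flox livers against 133.2 to 155.2 CPM. Markers of stellate cells, cholangiocytes, lymphocytes, neutrophils and dividing cells gave 0 calls. Of 6 acute-phase genes, which mark inflammation in hepatocytes and share a signal with Hamp, Saa1 alone was called, with a log2 fold change of -1.10, and lost its call in 4 of the 7.

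The members' calls depended on single livers to different degrees. Steap3 was called whichever library was left out. With labelled replicate 3 left out, 3 members were lower (Ncoa4, Steap3 and Slc11a2) and 0 higher. Over the 7 fits that each left out a liver, 1 to 3 members were lower and 0 to 1 higher. In limma's fit of log2(FPKM + 1), limited to genes reaching an FPKM of 1, 5 members were lower (Fth1, Trf and Tfr2 beside Ncoa4 and Steap3) and Tfrc was still higher. Lower calls prevailed over all genes in that fit, with 1733 lower and 561 higher. With voom, 3 were lower (Ncoa4, Steap3 and Slc11a2). Slc40a1 was called in no setting, and neither was Ftl1 nor Hamp.

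**Figure D5:**
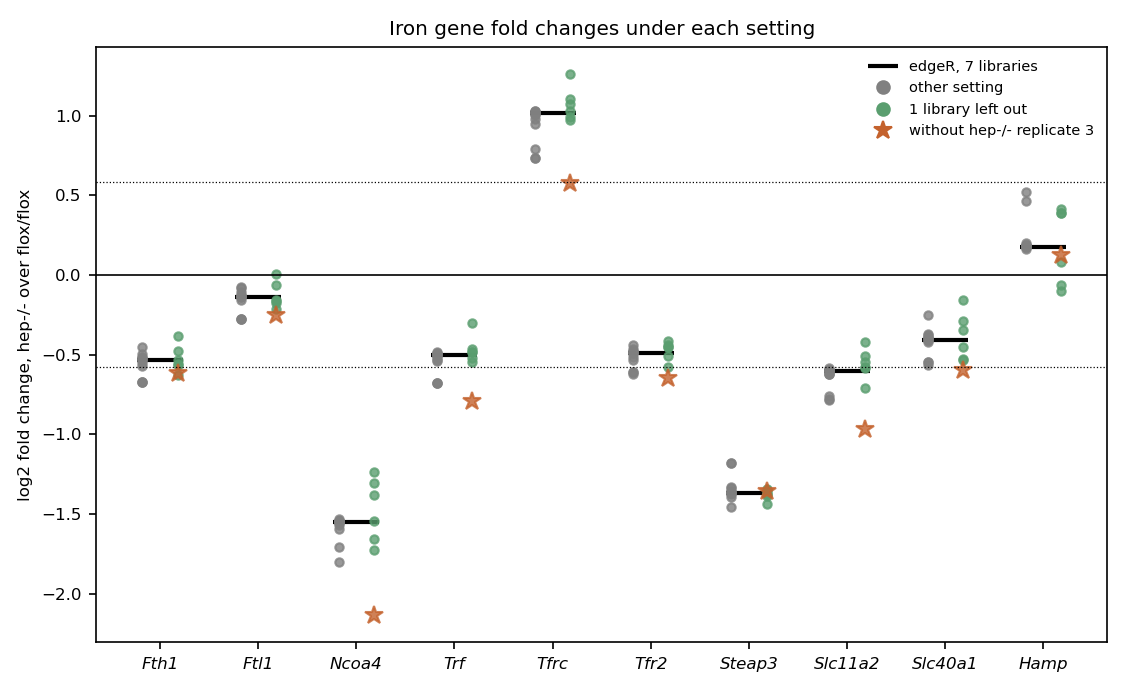
Log2 fold change of each member, libraries labelled B4galt1 hep-/- over B4galt1 flox/flox, with the black bar for edgeR on 7 livers, gray points for other settings, green points for fits with 1 library left out and the orange star for the fit without replicate 3 labelled B4galt1 hep-/-. Dotted lines stand at 0.58 in both directions. The star of Tfrc fell to 0.575, just under the line, that of Ncoa4 lay at -2.14, and the points of Steap3 stayed between -1.46 and -1.18.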

How the data were processed

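Liver RNA was measured in 7 mice, 1 library each. Per the labels, the submitters' processing notes name fastp, HISAT2, HTSeq, DESeq2 and R 3.2.0 and the build GRCm39. Annotation and strand setting are not given in the sources used here. The authors deposited raw counts per gene, and FPKM values that equalled count over gene length and library total within 1 percent for all 13374 genes that reached 10 counts in each library.

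Genes were filtered with edgeR's filterByExpr (minimum count 10, total 15), scaled by TMM and tested by the quasi-likelihood test of edgeR 4.0.16 in R 4.3.3 with group alone, Benjamini-Hochberg adjustment over 15179 genes, calls at an adjusted p below 0.05 and a log2 fold change beyond 0.58 in size. The tests were tried on simulated counts first. In CPM, 3 counts were 0.0690 to 0.0987. The common biological coefficient of variation was 0.301, and every pair of the 7 libraries differed by more than sampling noise. Ratios were taken between deposited FPKM values. Sequences came from GENCODE M21 and RefSeq of GRCm38, a build other than that of the counts. The alternatives were DESeq2 1.42.0, voom, limma 3.58.1 applied to log2(FPKM + 1) or to log2(FPKM + 0.1), RLE and upper-quartile scaling, removal of 13 mitochondrially encoded genes, other filters, no fold threshold, the replicate number as a block and each library left out.

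The members, gene lists and tests were chosen with earlier results of these data known. Named are all 10 members, B4galt1, near copies of members (Hamp2 and genes beginning with Fth or Ftl), and of each other list the genes called and its 2 most abundant genes, except 1 gene not reported here. Of the marker lists the text gives the genes called and, for hepatocytes, macrophages, endothelial and erythroid cells, summed levels, and Steap4, Slc39a14 and Lcn2 follow the same rule.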

Additional observations from a re-analysis of the deposited data

Results flagged for a closer look

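In 1 of 50 values examined, a library stood apart from the others of its group of 4. Isca1, a factor of iron-sulfur cluster assembly, was at 44.9 CPM in B4galt1 flox/flox replicate 1 and at 56.8 to 57.6 CPM in the other 3 mice of the group, a gap of 0.935 of the group's range where 0.829 is the limit. Chance alone flags about 1 in 20 such groups. Groups of 3 were not examined.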

How the results depend on the processing

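Of the 10 members, Steap3 kept its direction and call in all 19 alternatives. The number of members lower was 2 in the fit reported, 5 on log2(FPKM + 1) and on log2(FPKM + 0.1), 3 with voom, 1 on log2(FPKM + 1) over all genes above 0, and 1 to 3 with a library left out. Members higher numbered 1, and 0 on log2(FPKM + 1) over all genes, 0 under the replicate block and 0 to 1 with a library left out. Of the other iron genes, 9 were lower in the fit reported, 5 under the replicate block and 2 to 12 with a library left out. The 2 higher became 5 with DESeq2, 0 in each of the 3 FPKM fits, 0 under the replicate block and 0 to 3 with a library left out. Over all genes, 2404 calls became 1330 on log2(FPKM + 1) over all genes above 0, 1267 under the replicate block and 885 to 2396 with a library left out. Calls were higher in direction for 50.5% with TMM and for 24.5%, 23.6% and 18.2% in the 3 FPKM fits, in which the median log2 fold change shifted by -0.119, -0.127 and -0.123. These fits differ from the one reported in scaling, test and filter together, and the cause was not tested.

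The block used the replicate numbers, which mark different animals. Deviations of equal numbers correlated at -0.423, -0.097 and 0.094, so the numbers pair nothing, and none of the 3 labelled livers correlated best with its own number. The sign turned for Ftl1 without labelled replicate 2 (-0.252 to 0.006 over the libraries left out), for Hamp without B4galt1 flox/flox replicate 3 (-0.098) or labelled replicate 1 (-0.063, with -0.098 to 0.413 over all), for Slc39a14 without labelled replicate 3 (-0.007 to 0.801) and for the log2 ratio of Slc40a1 to Fth1 without B4galt1 flox/flox replicate 1 (-0.007 to 0.255, against 0.107). With 3 or 4 livers a group, the intervals of the members not called are wide, and a p that misses the threshold does not show that levels were equal.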
